A study of Mus musculus with 186 samples.

Results

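The promoters described here are 20 full-length promoter inserts of the second pool of housekeeping gene promoters. They were taken from the 273 inserts of that pool by length over 350 bp, by at least 3 barcodes (BCs) in at least 2 replicates, and by absence from the library of CpG mutants and from the Pwp2 promoter, whose sequences were measured again in other libraries. Overlap with inserts of the remaining libraries was not checked here. Of 79 inserts over 350 bp, 33 had enough BCs, and 20 of these 33 lay outside the CpG mutant library and the Pwp2 promoter. All deposited tables together list 572 constructs in 8 libraries. The length and BC limits use no activity, but the promoters taken on for other libraries were picked by the study with activities in view, so the split into 20 and 13 is not free of them. The kept inserts nearest to the length limit were 422 bp long on its upper side and 286 bp on its lower side.

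TrAC-seq measures promoters in their chromosomal context. Each promoter was placed in front of GFP and a random BC, and the pool was inserted by recombinase-mediated cassette exchange into the beta-globin locus of wild-type mouse embryonic stem cells (ESCs), which were grown in serum with LIF. BCs were sequenced from RNA and from genomic DNA of 3 replicates, which gave 6 samples. The activity of a promoter is the RNA over DNA ratio of its BCs, given here as log2. A value near 0 means about equal shares of BC reads in RNA and DNA. Because 0.05 was added to every ratio, no value can fall below -4.32, and differences from low values are smaller than those of the ratios without it.

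Housekeeping genes are active in nearly all cells, and most of their promoters lie in CpG islands, stretches with high G+C content and more CpGs than the genome average. Normalized CpG density is the number of CpGs observed over the number expected from the C and G content (OE). Such promoters usually lack a TATA box and carry motifs of broadly expressed factors, such as the GC box of SP1 and the site of ETS factors such as GABPA. The reporter assay asks how much activity such a stretch holds by itself at a locus that is silent in ESCs.

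The inserts were 422 to 570 bp long, with a median of 542.5 bp. In the GENCODE M1 annotation of mm9, 19 of the 20 held an annotated gene start, always on the strand of the insert and never with a second start on the other strand. Most of the 19 held more than 1 annotated start, for example 7 over 223 bp in Atg16l1 and 6 over 228 bp in Tor1b. Positions and composition relative to the start depend on which one is used. The start farthest upstream of a protein-coding transcript was used, and for Otud5 the start of a processed transcript, which was the only one inside. A median of 298 bp lay before this start (139 to 381 bp) and 229 bp after it (116 to 398 bp). The end of the first exon lay inside 13 inserts and coding bases inside 14, so the inserts hold transcribed bases of their genes in front of GFP. The remaining insert, chr16:3743414-3743910, held no annotated start. It ended 183 bp before the start of Zfp263, a zinc-finger gene, and is called the insert upstream of Zfp263.

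The stretches below run from 130 bases before the annotated start to 25 after it, read 5′ to 3′ from mm9 on the strand of the insert. They are shown because they span the range from the most to the least active promoters whose sequence is printed. Capitals mark the exact strings GGGCGG (SP1), CCGGAAG (GABPA and other ETS factors), CCAAT (NFY) and TGACGTCA (the cAMP response element, CRE) on either strand, so that their reverse complements are marked too.
Trmt11, chr10:30320531-30320685, minus strand: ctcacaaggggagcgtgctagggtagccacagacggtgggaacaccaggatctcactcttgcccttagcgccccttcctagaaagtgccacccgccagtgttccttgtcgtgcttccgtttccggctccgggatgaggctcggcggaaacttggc
Rps19bp1, chr15:80094712-80094866, minus strand: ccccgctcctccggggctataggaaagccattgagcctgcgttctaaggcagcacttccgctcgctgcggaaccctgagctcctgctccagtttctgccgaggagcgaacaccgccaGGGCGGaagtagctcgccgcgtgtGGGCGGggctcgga
Rab11a, chr9:64585541-64585695, minus strand: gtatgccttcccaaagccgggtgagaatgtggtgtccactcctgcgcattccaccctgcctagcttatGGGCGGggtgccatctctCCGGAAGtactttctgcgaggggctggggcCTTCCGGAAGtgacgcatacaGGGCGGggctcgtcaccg
Zscan20, chr4:128287318-128287472, minus strand: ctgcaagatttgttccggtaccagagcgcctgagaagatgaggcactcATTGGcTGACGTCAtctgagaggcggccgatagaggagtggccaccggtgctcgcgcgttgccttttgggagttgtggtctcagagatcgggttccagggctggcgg
Tprn, chr2:25117988-25118142, plus strand: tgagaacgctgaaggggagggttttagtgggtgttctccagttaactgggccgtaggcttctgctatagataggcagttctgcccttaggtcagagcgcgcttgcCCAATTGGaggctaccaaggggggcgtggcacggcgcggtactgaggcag
Trappc3, chr4:125939439-125939593, plus strand: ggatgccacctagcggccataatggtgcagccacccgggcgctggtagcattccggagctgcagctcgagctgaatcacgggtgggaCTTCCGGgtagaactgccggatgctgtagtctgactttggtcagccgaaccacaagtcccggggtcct
Tor1b, chr2:30808349-30808503, plus strand: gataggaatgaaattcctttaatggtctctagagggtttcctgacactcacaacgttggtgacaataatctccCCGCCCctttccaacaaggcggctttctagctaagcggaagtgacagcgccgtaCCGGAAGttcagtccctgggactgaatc
Otud5, chrX:7418360-7418514, plus strand: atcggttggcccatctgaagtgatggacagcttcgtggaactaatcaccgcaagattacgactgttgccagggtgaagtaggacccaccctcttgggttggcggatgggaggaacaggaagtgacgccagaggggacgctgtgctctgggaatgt
Acbd5, chr2:22923558-22923712, plus strand: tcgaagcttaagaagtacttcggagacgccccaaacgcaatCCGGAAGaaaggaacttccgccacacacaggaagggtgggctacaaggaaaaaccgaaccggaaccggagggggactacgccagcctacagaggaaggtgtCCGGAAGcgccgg
Ppp1r11, chr17:37088662-37088816, minus strand: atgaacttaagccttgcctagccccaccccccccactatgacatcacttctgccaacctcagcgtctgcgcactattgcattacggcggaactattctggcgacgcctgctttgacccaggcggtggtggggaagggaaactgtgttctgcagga

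The insert without an annotated start is shown by its last 155 bases, those nearest to Zfp263, with the same marks.
Upstream of Zfp263, chr16:3743756-3743910, plus strand: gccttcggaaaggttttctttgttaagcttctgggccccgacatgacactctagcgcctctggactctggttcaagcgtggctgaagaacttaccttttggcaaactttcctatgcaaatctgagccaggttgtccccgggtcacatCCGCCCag

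In the stretch of Rab11a, a pair of ETS strings overlapped head to head just before the start, and GC boxes lay on both sides of them. The stretch of Trmt11, the most active promoter printed, held none of the marked strings, and neither did those of Otud5 and Ppp1r11. A match is a description of letters and not a bound site, and a missing match says only that these letters are absent from the window.

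The 3 replicates of the pool differed in depth and level. They held 700, 507 and 574 BCs over all inserts, of which 164, 116 and 150 belonged to the 20 promoters. A replicate value of a promoter rested on 3 to 23 BCs, with a median of 5. Of 60 possible values 57 were given, since Psmd2, Mettl14 and Tbc1d22a had too few BCs in 1 replicate each. The median of the 20 promoters was -0.18 in replicate 1, -0.31 in replicate 2 and 1.12 in replicate 3, so replicate 3 stood above the others. Means over replicates were not adjusted for this. Those of Psmd2, Mettl14 and Tbc1d22a lack 1 replicate each, so they are not on the same footing as the rest. Ranks, class medians and correlations carry the same limit. Nothing in the labels or methods says that the replicates were separate cultures, so the p-values below reflect no more than the scatter of these 3 replicates, which may be technical.

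The 20 promoters ranged from 3.92 to -4.14 in mean log2 activity, with a median of 0.77. The lower end of this range is set by the added 0.05. The interquartile range of the means was -2.03 to 1.52. The SD of the means between promoters was 2.42, against a pooled SD of 1.00 between replicates of a promoter. Of the 20, 10 had a mean above 1, 7 had a mean below -1, and 2, Acbd5 and Ppp1r11, lay within 0.5 of the lowest measurable value. The 13 promoters measured again elsewhere ranged from -1.51 to 2.39, with a median of 0.27, a range that the study's choice of them may have fixed.

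Short inserts of the same pool, 28 to 286 bp long, served as the level of a construct without promoter activity. Their 27 means lay between -4.32 and -3.93 and averaged -4.26. Relative to this level 18 of the 20 promoters were more active (limma with Benjamini-Hochberg adjustment over all 60 inserts kept). The background of this call is 55%, since 33 of 60 inserts passed, among them 13 of 13 promoters measured again and 2 of the 27 short inserts. The short inserts set the reference, which lowers this share by design. The 13 promoters measured again are therefore the closer comparison, though they were picked with activities in view. A call did not need a large difference. The mean of the short inserts was subtracted as a fixed value, so the spread between them (SD of means 0.10) does not enter the p-values. The SD between replicates of the short inserts had a median of 0.0082, and the variance that limma shares across inserts was low. Ppp1r11 passed at a log2 difference of 0.12 (adjusted p = 0.0442), although its mean of -4.14 lay within the range of the short inserts. Tbc1d22a did not pass at 5.30 on 2 replicates (adjusted p = 0.0737). With the difference taken within each replicate (a replicate block), Ppp1r11 did not pass (adjusted p = 0.0525) and the count was 17. The count fell to between 5 and 11 when any 1 replicate was left out.

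Among the 20 promoters, all 4 of genes that act on RNA and translation had a mean log2 activity above 1. Means above 1 were common, with 10 of the 20 and 15 of the 33 full-length promoters. The 13 promoters measured again, of which 5 had a mean above 1, were not sorted into gene classes. Trmt11 encodes the catalytic subunit of an enzyme that methylates guanosine in tRNA. Its insert (chr10:30320253-30320732, minus strand) gave 3.49, 4.45 and 3.79 in replicates 1 to 3, a mean of 3.91 ± 0.49 (SD, n = 3). Each of its values lay above every value of the other promoters except Srfbp1 and Eif2b2. Relative to the short inserts it was 8.17 higher (SE 0.25, adjusted p = 0.00265 by limma).

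Rps19bp1 encodes a nucleolar protein that binds the ribosomal protein S19. Its promoter (chr15:80094543-80095101, minus strand) gave 0.88, 3.34 and 2.51, a mean of 2.24 ± 1.25 (SD, n = 3), and rested on 13, 9 and 15 BCs. It was lower than Trmt11 in every replicate. Mettl14, the partner of Mettl3 in the complex that writes methyladenosine into mRNA, gave 1.32 and 1.70 in replicates 1 and 3 (chr3:123088657-123089118, minus strand). Eif2b2, a subunit of the exchange factor of the initiation factor eIF2, gave 1.03, -0.35 and 3.69 (chr12:86560052-86560621, plus strand). The SD of Eif2b2, 2.05, was the highest of the 20, so its rank among them is not fixed by these replicates.

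The promoters of 2 genes of transcription were also active. Srfbp1 encodes a binding partner of serum response factor. It gave 2.96, 4.99 and 3.81, a mean of 3.92 ± 1.02 (SD, n = 3) on 3 or 4 BCs, and was the highest by its mean. Srfbp1 and Trmt11 differed by 0.01 in their means and changed order between replicates, so neither can be placed above the other. Zscan20, a zinc-finger gene with a SCAN domain, gave 0.63, 1.48 and 2.24 (chr4:128287126-128287687, minus strand), a mean of 1.45 ± 0.80 (SD, n = 3). Its insert was the only one of the 20 with the CRE string, and held 4 copies of the NFY string and none of the SP1 string.

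The 4 genes of membrane traffic spread from active to weak. Rab11a, a small GTPase of recycling endosomes, gave 0.12, 2.38 and 2.24 (chr9:64585278-64585820, minus strand), with replicate 1 below the other values. Tbc1d22a, which has a Rab GTPase-activating domain, gave -0.18 and 2.26 in replicates 1 and 3 (chr15:86044559-86045106, plus strand). Gcc2, a golgin of the trans-Golgi network, gave -0.32, 1.26 and 0.54 (chr10:57717984-57718451, plus strand). These values overlapped across the 3 genes. Trappc3, a subunit of the TRAPP tethering complex, stood apart with -2.20, -2.44 and -1.24 (chr4:125939286-125939754, plus strand), and all its values lay below those of Rab11a, Tbc1d22a and Gcc2.

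Genes of protein turnover and folding held both moderately active and weak promoters. Psmd2, a subunit of the regulatory particle of the proteasome, gave 1.11 and 2.02 in replicates 2 and 3 (chr16:20651427-20651976, plus strand). The promoter of the autophagy gene Atg16l1 gave 1.36, -0.27 and 0.20 (chr1:89652306-89652843, plus strand). Both lay above the other pair of this group in every replicate measured. Tor1b, a torsin ATPase of the endoplasmic reticulum, gave -2.24, -2.29 and -2.19 (chr2:30808201-30808738, plus strand), an SD of 0.052. The deubiquitinase gene Otud5, on the X chromosome, gave -2.74, -2.09 and -2.08 (chrX:7418119-7418679, plus strand) on 10 to 16 BCs. Tor1b and Otud5 were weak but lay 2.02 and 1.95 above the short inserts on the log2 scale (adjusted p = 0.000677 and 0.0123 by limma).

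Among genes of other roles, Znhit2, Tprn and Dtymk had means of 1.13, -0.99 and -1.30. Znhit2, a HIT-type zinc-finger gene that GENCODE M1 lists as Znhit2-ps, gave 1.30, -0.77 and 2.85 (chr19:6060986-6061517, plus strand). Tprn encodes taperin of hair-cell stereocilia, and its promoter gave -2.53, 0.17 and -0.61 (chr2:25117737-25118304, plus strand). Dtymk, the thymidylate kinase that makes dTDP for DNA synthesis, gave -1.10, -1.38 and -1.42 (chr1:95698288-95698836, minus strand). Replicates of Dtymk lay within 0.32 of each other, whereas those of Znhit2 and Tprn spanned 3.62 and 2.69.

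At the low end, 3 inserts lay close to the lowest measurable value. The insert upstream of Zfp263 gave -3.85, -3.49 and -3.32, a mean 0.71 above the short inserts on the log2 scale (adjusted p = 0.0426 by limma). Acbd5, which encodes a peroxisomal acyl-CoA-binding protein, gave -3.44, -4.25 and -4.00 (chr2:22923401-22923942, plus strand), and its difference from the short inserts, 0.36 (SE 0.21), did not pass (adjusted p = 0.236 by limma). Ppp1r11, an inhibitor of protein phosphatase 1, gave -4.08, -4.16 and -4.17 (chr17:37088444-37088994, minus strand). The low value of Ppp1r11 rested on 23, 16 and 19 BCs, the most of the 20 promoters in each replicate.

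By class of gene, the median mean activity was 1.88 for the 4 genes of RNA and translation (1.46 to 3.91), 0.77 for the 4 of membrane traffic (-1.96 to 1.58) and -0.91 for the 4 of protein turnover and folding (-2.31 to 1.57). The median of all 20 was 0.77 and that of the 33 full-length promoters 0.49. The classes overlapped, held at most 4 genes each and were not tested.

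A second comparison set each promoter against the median of the 33 full-length promoters in the same replicate. It takes out the shift of that median between replicates. Short inserts, with medians of -4.30, -4.31 and -4.31 in replicates 1 to 3, lay at the lowest measurable value. They could therefore hardly show such a shift and say nothing about it. Over the 20 promoters, centring raised the median SD between replicates from 0.72 to 0.85. It raised the SD of Ppp1r11, which lay within 0.5 of the lowest measurable value, from 0.051 to 0.66. By this measure 2 promoters were above the median, against a background of 9.09% of the 33, and 6 were below it, against a background of 21.2% (limma with Benjamini-Hochberg adjustment over the 33). Those above were Srfbp1, by 3.71 (SE 0.62, adjusted p = 0.0226), and Trmt11, by 3.69 (SE 0.45, adjusted p = 0.0132). Those below were Trappc3, Tor1b, Otud5, the insert upstream of Zfp263, Acbd5 and Ppp1r11, with differences of -2.17 to -4.35. Zscan20, at 1.24 above the median, and Dtymk, at -1.51, both had an adjusted p of 0.0519. Without replicate 3, Srfbp1 did not pass (adjusted p = 0.0921, in a range of 2.78e-11 to 0.0921 over the alternatives), and without replicate 1 the count of promoters below fell to 3. The other 10 promoters, from Rps19bp1 to Tprn, gave differences of 2.03 to -1.20 that did not pass. These calls depended on the settings. Against the mean in place of the median of the full-length promoters, 9 promoters were above and 8 below, among them Rps19bp1, Rab11a and Tprn. With trended and robust variances 6 were above and 8 below, and of the 15 promoters left with at least 5 BCs in 2 replicates, 5 were above and 7 below.

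The order of pairs was checked in the same replicates whose means gave the ranks. Neighbours in rank are close in those means, so they are bound to change order more often than distant promoters. Of the 190 pairs of promoters, 146 (76.8%) had the same order in every replicate that measured both, against 76.3% of the 528 pairs among all 33 full-length promoters. Of the 19 pairs of neighbours in rank, 7 kept their order, and 4 of these rested on 1 or 2 shared replicates. Activity over the promoters had a Spearman correlation of 0.79 between replicates 1 and 2 (n = 17), 0.87 between replicates 1 and 3 (n = 19) and 0.85 between replicates 2 and 3 (n = 18). These points share the pool and the DNA libraries of each replicate. The SD between replicates was larger in more active promoters (Spearman 0.53 over the 20). Because 0.05 was added to every ratio, log2 values near -4.32 can vary little, so part of this relation is built in. The SD had a correlation of -0.19 with the mean number of BCs, and 7 promoters had an SD above 1.

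All 20 inserts had a G+C content over 50%, from 50.6% to 66.5% with a median of 59.8%, and 17 had an OE of at least 0.6, the usual limits of a CpG island. OE ranged from 0.524 to 1.09 with a median of 0.811, and the number of CpGs from 20 to 59 with a median of 38. The 3 inserts under an OE of 0.6 were Ppp1r11 at 0.524, Zscan20 at 0.534 and the insert upstream of Zfp263, which lay just under the limit. Their mean activities were -4.14, 1.45 and -3.55, so a low OE was found at both levels of activity. The highest OE values belonged to Znhit2 at 1.09 and Srfbp1 at 1.09, with means of 1.13 and 3.92. Acbd5 had an OE of 0.854 and 32 CpGs at a mean of -3.90, whereas Trmt11, with an OE of 0.727 and 38 CpGs, reached 3.91.

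Over the 20 promoters, log2 activity had a Spearman correlation of 0.23 with OE, 0.33 with the number of CpGs and 0.51 with G+C content. CpGs per 100 bp gave 0.43 and insert length -0.14. Over the 19 promoters with an annotated start, the number of bases before the start gave -0.16 and that after it 0.03. Several insert features were thus examined. The points share 1 pool and its replicates, and the features are not separate from each other, since CpGs per 100 bp and G+C content had a correlation of 0.75. Within replicates 1, 2 and 3, the correlation was 0.46, 0.21 and 0.33 for OE and 0.51, 0.55 and 0.63 for G+C content. Among the 13 promoters measured again, OE gave 0.47 and G+C content 0.21, the opposite order of the same features, and no difference between the groups was tested. Without the 2 promoters within 0.5 of the lowest measurable value, the correlation over 18 was 0.18 for OE, 0.15 for the number of CpGs and 0.34 for G+C content. Over the 19 promoters with an annotated start, which leave out the insert upstream of Zfp263, it was 0.14, 0.23 and 0.43. Activity was also lower where more BCs were counted (Spearman -0.45 with the mean number of BCs), and the part of BC number in these relations was not tested.

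Composition near the start was compared in the 19 promoters with an annotated start. Other annotated starts inside the same inserts were not tried. The G+C content of the 150 bases around it had a Spearman correlation of 0.50 with activity, and the number of CpGs in them 0.28. Over the whole inserts of the same 19, the values were 0.43 and 0.23. In the bases before the start the values were 0.25 for G+C content and 0.11 for CpGs, and in those after it 0.35 and 0.21. Atg16l1 had the lowest G+C content before the start, 40.3% with 2 CpGs, and 68.4% with 47 CpGs after it, at a mean activity of 0.43. Psmd2, Tbc1d22a and Dtymk had the same number of CpGs in the window, 18 each, with means of 1.57, 1.04 and -1.30. The means of Psmd2 and Tbc1d22a rest on 2 replicates each. In replicate 3, the only one they share, Tbc1d22a (2.26) was above Psmd2 (2.02).

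The strings of 9 motifs were searched on both strands of the inserts. The SP1 string GGGCGG was found in 14 of 20 promoters, with 28 copies, and in 35.7% of 32851 RefSeq promoter windows of 300 bases, which are shorter than the inserts. Promoters with it had a median activity of 1.29 and those without it of -1.63, but both sets were wide, from -3.55 to 3.92 and from -4.14 to 1.45. The 6 promoters without it were Zscan20, Tbc1d22a, Dtymk, Trappc3, Acbd5 and Ppp1r11. Of the 13 promoters measured again, 11 held it. The windows that RefSeq gives for 15 of the 20 genes held it in 6 cases. RefSeq windows were shorter than the inserts and were not matched to them in G+C or CpG content. Their shares are thus no matched background for this or any other string.

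The ETS string CCGGAAG was found in 13 of 20 promoters, with 21 copies, and in 8.86% of the RefSeq windows (8 of the 15 windows of these genes). Median activity was 1.04 with it and 0.49 without it, and the ranges overlapped. Of the 2 promoters with the highest means, Srfbp1 held it and Trmt11 did not. Acbd5 and Ppp1r11, within 0.5 of the lowest measurable value, had 2 copies each, whereas Rab11a had 4 copies and a mean of 1.58. Of the 13 promoters measured again, 7 held it. The NFY string CCAAT was found in 8 promoters, with 6 of its 19 copies in Tprn, in 5 of the 13 measured again and in 37.4% of the RefSeq windows (7 of 15). The E-box CACGTG occurred in Srfbp1, Dtymk and Tor1b, in 3 of the 13 measured again and in 7.15% of the windows, and the CRE string TGACGTCA in Zscan20 and in 1.79%.

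The other strings were found in none of the 20 inserts. These were CGCATGCG (the core of the NRF1 motif, in 1.87% of RefSeq windows), AAGATGGCG (YY1, 1.40%), TATAAA (the TATA box, 13.6%) and ACTACAA (a part of the ZNF143 motif, 3.24%). Of the sites marked in the printed stretches, the SP1 string lay 13 bases before the start in Rps19bp1 and 57 before it in Tor1b, promoters whose means were 2.24 and -2.24. The ETS string began 3 bases before the start in Tor1b and 43 before it in Trappc3.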

How the data were processed

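TrAC-seq data of 1 pool were used, in 3 replicates of RNA and genomic DNA from wild-type ESCs. Samples were grouped by library, genotype and replicate number as the labels give them. The authors assigned BCs to promoters on mm9 with Bowtie, both named in the submitters' processing notes (version not given in the sources used here), scaled RNA and DNA BC counts to the smaller total, kept BCs with more than 20 DNA reads, added 0.05 to each ratio and deposited the geometric mean over BCs as a linear ratio. The number of BCs per construct was deposited as a count, the G+C content as a percent by the authors, and OE as a ratio. Values under 3 BCs were not given in the deposited activity ratio. Read totals were not used here, so precision is known only from the BC numbers and the spread between replicates.

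Here activities were converted to log2 and averaged over replicates. Both comparisons used the one-sample moderated test of limma 3.58.1 in R 4.3.3, two-sided, at an adjusted p of 0.05 (Benjamini-Hochberg). They were first run on simulated data, which were not bounded at the lowest measurable value as the real values are. A criterion on the share of simulated effects called was missed there and was replaced by others after that result was seen. The first comparison subtracts the mean of the short inserts, the second the median of the full-length promoters of each replicate. Sequences and correlations were handled in Python 3.11.15 with numpy 2.4.6, pandas 2.3.3 and scipy 1.17.1. Correlations are descriptions without a test. The bases of all 273 inserts in NCBIM37 gave the deposited G+C and CpG values, and coordinates are 1-based. RefSeq promoter windows were matched by gene symbol.

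The members, the tests, the gene classes and the motif strings were chosen with earlier results of these data known. All members are named. CpGs per 100 bp, length, composition around the start, the order of pairs and the relations to SD and BC number were added after the values were seen. Alternatives were the barcode minimum, each replicate left out, another variance model, the length limit, the reference level, Pearson's r and sets of promoters. Other libraries, cells without DNA methyltransferases, methylation and ChIP-seq data were not analysed here. Activities are relative within a pool, so no level was compared between libraries.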

Additional observations from a re-analysis of the deposited data

How the results depend on the processing

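Counts of calls depended on the settings. Of 20 promoters, 18 were more active than the short inserts. The count was 5 to 11 with 1 replicate left out, where fewer values remained per promoter. It was 12 of the 15 promoters left with at least 5 BCs in 2 replicates, and 5 of the 5 left with at least 10. It was 18 with trended and robust variances or a length limit of 400 bp, and 17 with a replicate block. Ppp1r11 was lost with the block (adjusted p = 0.0525 by limma, in a range of 0.0304 to 0.226 over the alternatives). Ppp1r11 was also lost with any 1 replicate left out and with at least 5 BCs (adjusted p = 0.117 by limma). With trended and robust variances Ppp1r11 did not pass (adjusted p = 0.0844), whereas Tbc1d22a did (adjusted p = 0.000726). Values already required 3 BCs, so both settings on that minimum changed nothing. Of 20 promoters, 8 differed from the median promoter of the replicate, which acts as a replicate block; the count was 9 without that block, 5 to 9 with 1 replicate left out, 12 of 15 with at least 5 BCs, 3 of 5 with at least 10, 14 with trended and robust variances and 17 against the mean in place of the median, so this count depends on the variance model and the reference. Small differences from the median promoter changed sign: with 1 replicate left out, Gcc2 ranged from -0.34 to 0.62, Tbc1d22a from -0.15 to 1.33 and Atg16l1 from -0.37 to 0.69, and Atg16l1 was at -0.066 without the block. The correlation with G+C content ranged from 0.34 to 0.76 and that with OE from 0.12 to 0.38 over the alternatives, all positive. Acbd5 and Ppp1r11, both near -4.32, changed order between replicates.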
